A study of Mus musculus with 2 samples.

Results

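Cells build cholesterol from acetyl-CoA through a long chain of enzymes, and 8 genes of this pathway were examined in mouse embryonic stem cells (mESCs). They are the genes of 7 enzymes, Hmgcs1, Mvd, Idi1, Fdps, Fdft1, Sqle and Cyp51, and of the transcription factor SREBF2 (Srebf2). They were chosen by name, as the rows of the deposited count table with these symbols, and make up 8 of the 22556 genes listed. All 8 were found, all were autosomal, and all passed the minimum of 10 counts in total that 14536 genes of the table reached. The working name of the set also mentions uptake, but none of the 8 is a lipoprotein receptor.

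The cells were uninduced iXist-ChrX-Dom mESCs, which are female and of a Dom/129S x Cast background. Its own Xist promoter was replaced with a TetOn promoter on the Dom/129S allele. The labels give their cell type as mESC to NPC. Polyadenylated RNA was sequenced from 2 untreated replicates at 0 h, so that the series holds 1 group and no treatment to compare. The cells grew in medium with foetal calf serum and LIF, and the fibroblast feeder cells were removed by pre-plating. Nothing in the labels says that the replicates came from separate cultures, so their spread may be technical. Both alleles were counted together, and a level in bulk RNA cannot tell fewer expressing cells from less RNA per cell.

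In this pathway, HMG-CoA synthase makes the precursor of mevalonate, and mevalonate is phosphorylated and decarboxylated to the isoprenoid unit from which farnesyl diphosphate is assembled. Squalene synthase joins a pair of farnesyl groups and commits them to sterols, after which squalene is oxidised, closed into rings and trimmed to cholesterol. The pathway is governed by sterols through SREBP2, the product of Srebf2. It is held in the endoplasmic reticulum with SCAP and an INSIG protein while sterols are plentiful, and is cut free by proteases of the Golgi when they run low. In the nucleus it binds sterol regulatory elements, usually together with NF-Y at CCAAT boxes and with Sp1.

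Promoter sequences from RefSeq (GRCm38.p6, the assembly of mm10) were at hand for 5 members, Hmgcs1, Mvd, Idi1, Cyp51 and Srebf2, as windows from 250 bases before to 50 bases after the annotated start. Of these, 3 are shown for the 250 bases before the start: the member with the highest level, the one with the lowest level, and the regulator itself. Capitals mark CCAAT on either strand (ATTGG where it lies on the opposite strand) and the sterol element, TCACNCCA or, in Hmgcs1, its longer form TCACNCCAC. The windows are chr13:119690101-119690350 (plus strand) for Hmgcs1, chr8:122443423-122443672 (minus strand) for Mvd and chr15:82147019-82147268 (plus strand) for Srebf2.

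Hmgcs1: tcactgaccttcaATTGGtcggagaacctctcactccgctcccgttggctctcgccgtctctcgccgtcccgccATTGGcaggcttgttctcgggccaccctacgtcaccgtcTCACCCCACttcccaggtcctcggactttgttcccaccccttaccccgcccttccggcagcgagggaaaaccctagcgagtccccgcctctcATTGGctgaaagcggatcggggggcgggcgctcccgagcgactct
Mvd: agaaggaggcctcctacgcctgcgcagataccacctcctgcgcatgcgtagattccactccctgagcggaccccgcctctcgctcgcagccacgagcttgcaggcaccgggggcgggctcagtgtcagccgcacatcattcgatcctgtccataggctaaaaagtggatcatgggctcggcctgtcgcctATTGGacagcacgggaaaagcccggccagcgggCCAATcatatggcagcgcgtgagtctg
Srebf2: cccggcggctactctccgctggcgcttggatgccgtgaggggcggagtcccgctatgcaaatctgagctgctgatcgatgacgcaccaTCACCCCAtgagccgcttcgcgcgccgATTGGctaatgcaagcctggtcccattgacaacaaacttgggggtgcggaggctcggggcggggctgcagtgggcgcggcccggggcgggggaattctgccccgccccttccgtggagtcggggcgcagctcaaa

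The 4 motifs searched on both strands were TCACNCCAC, which is the core of the sterol regulatory element, its shorter form TCACNCCA, which every longer match also contains, CCAAT and GGGCGG, the Sp1 box. TCACNCCA was found in the windows of Hmgcs1 and Srebf2, 2 of the 5, against 4.36% of 32851 promoters in all and 3.92% of the 13799 promoters of tested genes. The longer TCACNCCAC was found in Hmgcs1, and in 1.24% of all promoters. In both genes the element reads TCACCCCA, beginning 137 bases before the start of Hmgcs1 and 162 bases before that of Srebf2. The nearest CCAAT lay 34 bases from it in Hmgcs1 and 19 bases from it in Srebf2. CCAAT was present in all 5 windows, against 37.4% of all promoters and 37.7% of those of tested genes. It occurred 4 times in Hmgcs1, 2 times in Mvd and Idi1, and 1 time in Cyp51 and Srebf2. At least 2 copies were found in 3 of the 5, against 11.7% of all promoters. The other sterol enzymes, with 16 promoters in the table, held CCAAT in 75% of them, at least 2 copies in 50% and TCACNCCA in 1. GGGCGG was also present in all 5, against 35.7% of all promoters and 60.5% of those of tested genes. A match of letters describes the window, and was not tested as a binding site. Only these exact letters were searched, so a missing match does not show that an element is absent.

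**Figure D1:**
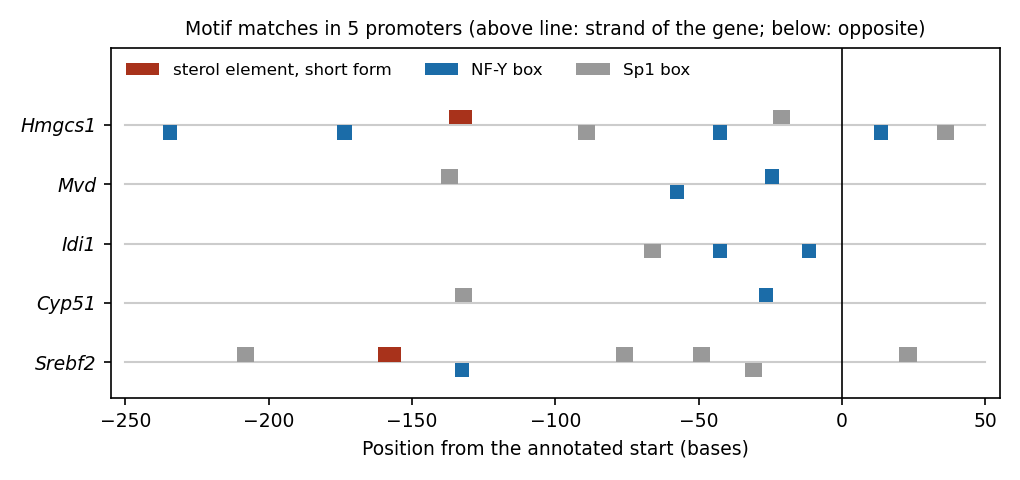
Matches to the sterol element, the NF-Y box (CCAAT) and the Sp1 box (GGGCGG) in the promoters of 5 members, by distance in bases from the annotated start (0 on the axis). Boxes above each line lie on the strand of the gene and boxes below on the opposite strand. All 5 promoters hold matches to CCAAT and GGGCGG, and 2 hold a match to TCACNCCA.

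Levels are given as TPM (transcripts per 1000000), in which counts are divided by the exonic length of the gene and scaled to 1000000 in each library, so that genes can be set beside each other. CPM (counts per 1000000) is the count without length, and is used for the same gene between libraries. The 8 members ranged from 3.57 to 527 TPM in the mean of the 2 replicates. Their median was 62.5 TPM, against 11.5 TPM for all genes tested, which is higher than 77.5% of those genes. Of the 8, 7 stood at 10 TPM or more, as did 7540 of the genes tested.

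Among the 8 members, the transcript of the earliest enzyme was the most abundant. Hmgcs1, cytosolic HMG-CoA synthase (mm10 chr13:119690351-119708260, plus strand), was counted 11099 times in replicate 1 and 13262 times in replicate 2. These are 424 and 630 TPM, a mean of 527 ± 146 TPM (SD, n = 2), which put it at rank 285 among the tested genes with an exonic length. It alone made up 38.4% of the summed TPM of the 8 members in replicate 1 and 50.5% in replicate 2. Its lower replicate was above both replicates of every other member.

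The steps from mevalonate to farnesyl diphosphate were lower. Mvd, mevalonate diphosphate decarboxylase (chr8:122433596-122443422, minus strand), was the lowest member, with 62 and 26 counts, or 4.70 and 2.45 TPM. At these counts the 95% exact Poisson interval, which covers counting error only, ran from 2.00 to 3.35 CPM in replicate 1 and from 0.838 to 1.88 CPM in replicate 2. Mvd was higher than 32.6% of the genes tested, and its mean of 3.57 ± 1.59 TPM (SD, n = 2) was 148 times below that of Hmgcs1, a ratio of 90.3 in replicate 1 and 257 in replicate 2.

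Idi1, the isomerase that interconverts the isoprenoid units (chr13:8885606-8892396, plus strand), had 994 and 1015 counts, which gave 43.7 and 55.5 TPM. Fdps, farnesyl diphosphate synthase (chr3:89093588-89101967, minus strand), had 663 and 254 counts, or 60.7 and 28.9 TPM. The order of this pair turned over between the libraries, since Fdps was 1.39 times Idi1 in replicate 1 and 0.521 times in replicate 2, whereas with lengths that include introns Idi1 was above Fdps in both. Both are less certain than other members, because 51.1% of the 50-base words of the Fdps transcript and 21.3% of those of Idi1 also occur in pseudogene transcripts, so that a read from these words matches more than 1 transcript.

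Fdft1, squalene synthase (chr14:63145150-63177793, minus strand), had 2756 and 1154 counts, or 99.1 and 51.6 TPM. It shares 10.9% of its words with pseudogenes, and its span overlaps Ctsb on the opposite strand, which the stranded counting kept apart. The next enzymes were higher. Sqle, squalene epoxidase (chr15:59315092-59331193, plus strand), had 5080 and 4103 counts and stood at 245 and 246 TPM.

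Cyp51, lanosterol demethylase (chr5:4080674-4104697, minus strand), had 5730 and 4949 counts, which are 194 and 208 TPM. In TPM, Sqle exceeded Cyp51 in both libraries, and both lay above all members other than Hmgcs1. Srebf2 (chr15:82147269-82204960, plus strand) had 1281 and 794 counts, or 33.6 and 25.9 TPM, a mean of 29.7 ± 5.44 TPM (SD, n = 2). The transcript of the regulator was thus below those of 6 of the 7 enzymes in the mean, with only Mvd lower.

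**Figure D2:**
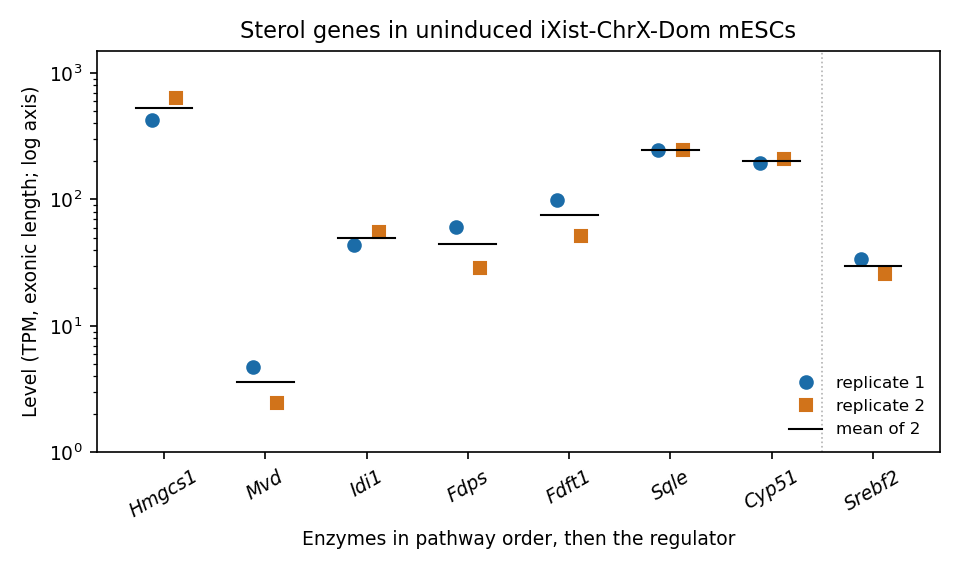
Level of each member in TPM on a log axis, enzymes in the order of the pathway and then Srebf2; the circle is replicate 1, the square replicate 2 and the bar their mean. Hmgcs1, Sqle and Cyp51 stand above the rest, Mvd lies below 5 TPM, and the replicates of Fdft1, Fdps and Mvd lie farthest apart.

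By mean TPM the order was Hmgcs1, Sqle, Cyp51, Fdft1, Idi1, Fdps, Srebf2 and Mvd. The ranges of the 2 replicates did not overlap between Hmgcs1 and Sqle, Sqle and Cyp51, Cyp51 and Fdft1, or Srebf2 and Mvd. They overlapped between Fdft1 and Idi1, Idi1 and Fdps, and Fdps and Srebf2, so that the spread over replicates did not separate these neighbours, although Fdft1 was above Idi1 in replicate 1 alone and Fdps was above Srebf2 in both libraries. With span length the ranges of Fdps and Srebf2 did not overlap. Of the 28 pairs of members, 26 stood in the same order in both libraries. The length matters for Idi1, whose span of 6792 bases holds 3027 exonic bases. With the length column of the deposited table, which includes introns and is called span length here, Idi1 moved above Fdft1 to 115 ± 23.8 TPM, and Srebf2 fell to 13.6 ± 1.97 TPM (SD, n = 2).

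**Figure D3:**
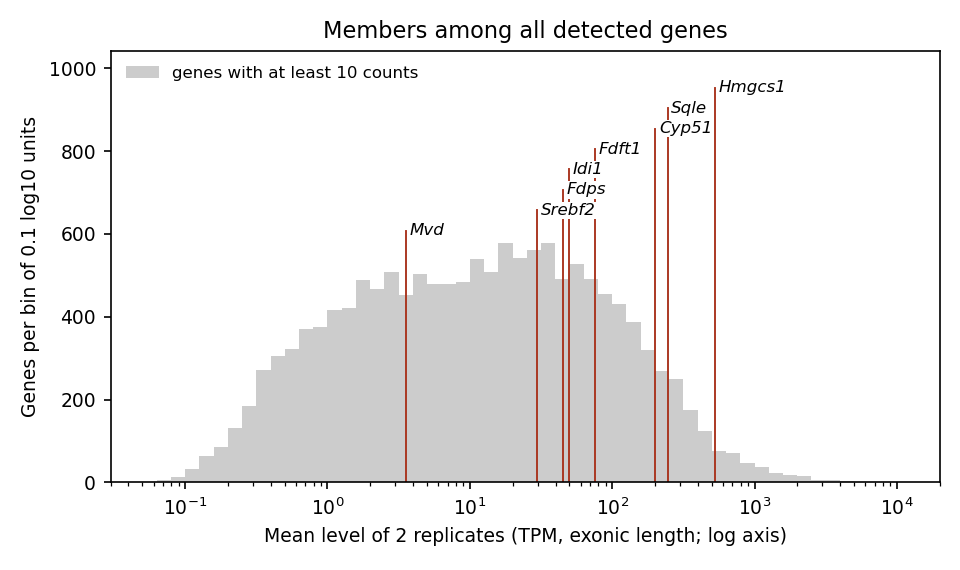
Mean TPM of the 2 replicates for genes with at least 10 counts (grey bars, genes per bin of 0.1 log10 units, log axis), with the 8 members as lines. Of the members, 7 lie to the right of 10 TPM and Mvd at 3.57 TPM lies left of it.

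The only comparison the series allows is between its 2 libraries. For each gene the 2 counts were set against the ratio of library totals, 23716499 and 20275749, in a two-sided exact binomial test with Benjamini-Hochberg adjustment over all genes tested, at a threshold of 0.05. By this test 7 of the 8 members differed between the libraries beyond counting error, 5 of them lower and 2 higher in replicate 2. Over all genes, 60.8% were called, 45.7% as lower and 15.1% as higher in replicate 2, so that a call says little about the members in particular. The median log2 ratio of replicate 2 over replicate 1, on CPM after adding 0.5 counts, was −0.27 for the members and −0.31 for all genes tested. TMM factors, which allow for unequal composition of the libraries, add 0.26 to every log2 ratio, so directions of small differences depend on this scaling.

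Scaled by library totals, Fdps differed most of the members, with 2.23-fold more CPM in replicate 1 than in replicate 2. Its log2 ratio was −1.16 (adjusted p = 4.64e-29, exact binomial test). Fdft1 had 116 CPM and 56.9 CPM, a log2 ratio of −1.03 (adjusted p = 8.59e-98, exact binomial test). Mvd went from 2.61 to 1.28 CPM, a log2 ratio of −1.01 (adjusted p = 0.00374, exact binomial test). These 3 enzymes thus had similar ratios between the libraries, although their levels differed widely.

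Srebf2 was lower in replicate 2 as well, at 39.2 CPM against 54.0 CPM (log2 ratio −0.46). Hmgcs1 went the other way, at 468 CPM in replicate 1 and 654 CPM in replicate 2, a log2 ratio of 0.48 (adjusted p = 4.11e-148, exact binomial test). Idi1 was also higher in replicate 2, at 50.1 CPM against 41.9 CPM (log2 ratio 0.26). Sqle, with 214 and 202 CPM, passed the test at a log2 ratio of −0.08 (adjusted p = 0.0129, exact binomial test), a direction that turned to 0.17 with TMM factors. Cyp51 gave 242 and 244 CPM, a log2 ratio of 0.01, and did not pass (adjusted p = 0.673, exact binomial test), but passed at 0.27 with TMM factors.

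The size of these differences moved with the base composition of the transcripts. The members run from 41.9% GC in Idi1 to 59.3% GC in Mvd. Over the 8 genes, Spearman's rho between GC content and the log2 ratio was −0.79, and over the 9244 autosomal genes that reached 50 counts in both libraries it was −0.66. The genes share the same 2 libraries and are not independent, so both are descriptions. The 3 members with a log2 ratio below −1 have 51.8% (Fdft1), 54.5% (Fdps) and 59.3% GC (Mvd), and the 2 that were higher in replicate 2 have 43.1% (Hmgcs1) and 41.9% GC (Idi1). Srebf2, at 57.9% GC, lay above the trend.

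When the GC trend of autosomal genes was taken as the expectation, 6 of the 8 members were called, 2 lower and 4 higher in replicate 2, against 44.6% of the genes that could be tested this way. Of the 7 earlier calls, those of Hmgcs1, Fdps, Fdft1, Sqle and Srebf2 remained, and Cyp51 was added at a log2 ratio of 0.17. Fdft1 and Fdps stayed lower, at log2 ratios of −0.50 and −0.48 relative to the trend, and Hmgcs1 stayed higher at 0.42. The values of Mvd (−0.23, adjusted p = 0.637) and Idi1 (0.11, adjusted p = 0.158) no longer passed the exact binomial test. The direction of Srebf2 turned to 0.31 and that of Sqle to 0.29. The SD of the 8 log2 ratios was 0.64 before and 0.36 after the trend was removed.

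**Figure D4:**
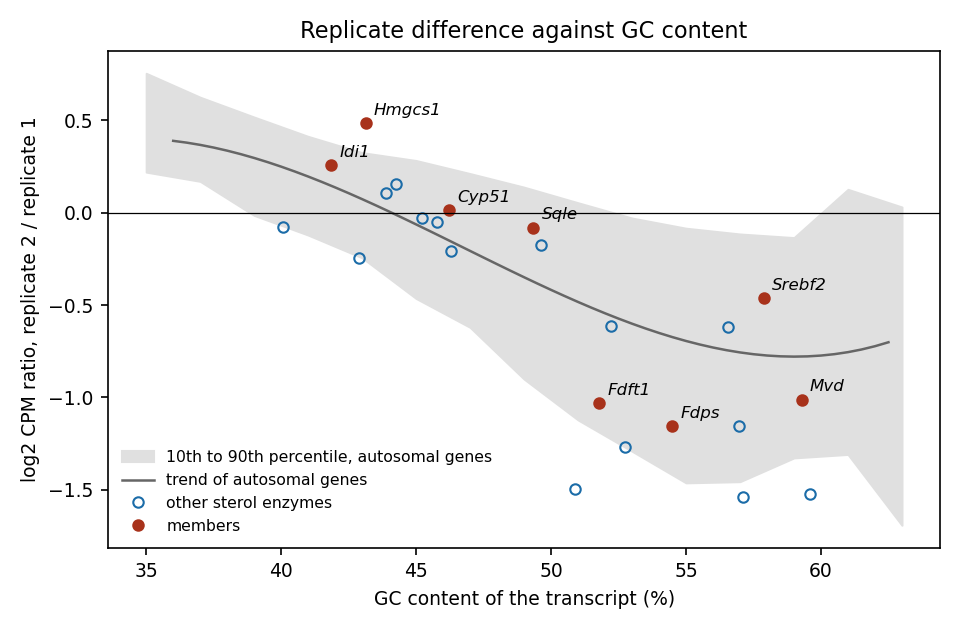
Log2 CPM ratio of replicate 2 over replicate 1 against the GC content of the transcript in percent, for the members (filled), 15 other sterol enzymes (open) and autosomal genes (grey band from the 10th to the 90th percentile, line for their trend). Fdft1, Fdps and Mvd lie near −1 at high GC content, while Hmgcs1 and Idi1 lie above 0 at low GC content.

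GC content also went with the level. Over the 8 members rho between GC content and mean TPM was −0.74, against −0.40 over the 9244 autosomal genes. Among genes within 2.5 points of its own GC content, Mvd was higher than 59.5% of 1783 genes, where it had been higher than 32.6% of all tested. Srebf2 moved in the same way, from 65.5% to 93.2%, and Fdps from 72.4% to 89.0%. Idi1, with the lowest GC content, went from 73.8% to 50.7%. Hmgcs1, Sqle and Cyp51 were high by both measures, above 95.4%, 94.9% and 88.7% of genes of like GC content. What part of a level comes from base composition was not tested.

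The rest of the pathway was read from 4 lists of 46 genes in all, 15 other sterol enzymes, 9 regulators of SREBP, 12 genes of uptake, trafficking, storage and export, and 10 of fatty acid synthesis. Of the 46, 32 stood at 10 TPM or more. The medians were 35.4 TPM for the other sterol enzymes, 6.99 TPM for the regulators, 18.1 TPM for uptake to export and 81.3 TPM for fatty acid synthesis, beside 62.5 TPM for the 8 members and 11.5 TPM for all genes tested.

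**Figure D5:**
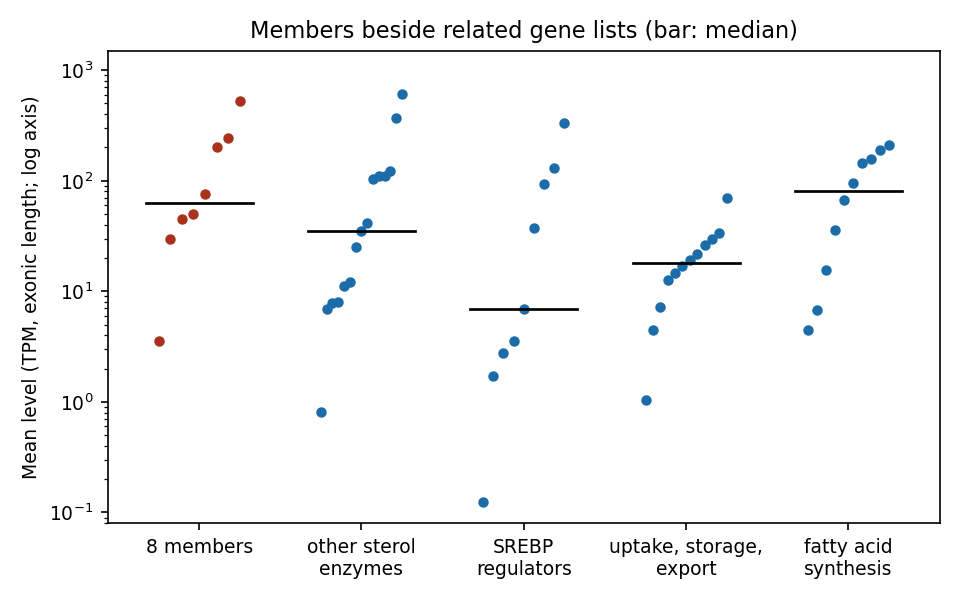
Mean TPM of the 2 replicates (log axis) for each gene of the members and of 4 related lists, sorted within a list, with the median as a bar. The members' median of 62.5 TPM lies between those of fatty acid synthesis (81.3 TPM) and of the other sterol enzymes (35.4 TPM), and every list spans more than 10-fold.

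The other sterol enzymes ran from 0.807 to 604 TPM, a wider range than that of the members. Msmo1, a C4-methylsterol oxidase downstream of Cyp51, was the highest of them at 591 and 617 TPM. Msmo1 was above Hmgcs1 in replicate 1 and below Hmgcs1 in replicate 2. Lbr, a nuclear envelope protein that also acts as a sterol reductase, had 335 and 397 TPM, and Acat2, which makes the acetoacetyl-CoA that Hmgcs1 uses, had 126 and 119 TPM. Lss, which closes squalene epoxide into lanosterol between Sqle and Cyp51, was far below its neighbours at 29.6 and 20.6 TPM.

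The kinases that precede Mvd lay below the median of the other sterol enzymes. Mvk, mevalonate kinase, had 18 and 5 counts and a mean of 0.807 ± 0.555 TPM (SD, n = 2), and Pmvk, phosphomevalonate kinase, had 16.6 and 7.92 TPM. The steps from mevalonate to the isoprenoid unit thus held the lowest member and the lowest of the other enzymes. All 3 transcripts are rich in GC, with 59.6% in Mvk, 57.0% in Pmvk and 59.3% in Mvd, and they had log2 ratios between libraries of −1.52, −1.15 and −1.01.

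The split by GC content held over the whole set of enzymes, members included, a division made after the values had been seen. The 12 enzymes with at most 50% GC had a median of 116 TPM and a median log2 ratio of −0.04 between the libraries. The 10 enzymes with over 50% GC had a median of 10.1 TPM and a median log2 ratio of −1.15, and all 10 were called lower in replicate 2, against 65.1% of all tested genes of that GC content. Of the 12, 4 were called lower, against 28.2%. With the GC trend removed, 5 of the 10 were called lower, against 22.8%, and Mvk, Pmvk, Lss, Tm7sf2 and Mvd no longer were. Of the 12, 2 were then called lower, against 20.4%. Over all genes tested the same division gave 30.9 TPM and −0.01 for 7492 genes, and 5.01 TPM and −0.75 for 6908 genes.

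Of the 15 other sterol enzymes, 10 were called lower and 1 higher in replicate 2, beside 45.7% and 15.1% of all genes tested, and Lbr was the higher one (log2 ratio 0.16). With the GC trend as the expectation, 7 were called, 5 lower and 2 higher, beside 44.6% of all genes. The constant shift of TMM factors turned the median log2 ratio from −0.24 to 0.01 for the other sterol enzymes, from −0.25 to 0.01 for uptake to export and from −0.19 to 0.07 for fatty acid synthesis, while that of the regulators stayed below 0, at −0.46 and −0.20. Of the 2 on the X chromosome, Nsdhl, a sterol dehydrogenase, had 109 and 111 TPM, and Ebp, a sterol isomerase, had 60.1 and 22.6 TPM. The log2 ratio of Ebp was −1.50 before and −1.02 after the trend was removed. With the trend removed, the libraries still differed for Ebp by more than counting error (adjusted p = 6.95e-23, exact binomial test). With Mbtps2, 3 of the 46 genes are X-linked, against 0 of the 8 members.

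The machinery around SREBF2 was uneven. Insig1, which retains SREBP in the endoplasmic reticulum, had 321 and 342 TPM, and its relative Insig2 had 40.3 and 33.8 TPM. The proteases that release SREBP were well expressed, Mbtps1 at 109 and 77.7 TPM and the X-linked Mbtps2 at 116 and 144 TPM. Scap, the escort of SREBP, had 110 and 52 counts, or 3.46 and 2.03 TPM. Its transcript has 59.1% GC, against 48.2% for Insig1. Scap was higher than 28.7% of the genes tested and than 51.3% of genes of like GC content. For Insig1 these shares were 96.1% and 96.4%.

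Srebf2 exceeded its paralogue Srebf1, which drives fatty acid synthesis more than sterol synthesis, by 6.57-fold in replicate 1 and 12.5-fold in replicate 2 in TPM. With span length these ratios were 2.90 and 5.48. Both are rich in GC, with 57.9% and 58.4%. Nr1h3, one of the LXR sterol sensors, had 4 and 0 counts, and its relative Nr1h2 had 33 and 15 counts. Of the 8 regulators that could be tested, 4 were called lower and 1 higher in replicate 2, close to the 45.7% and 15.1% over all genes.

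Genes of uptake to export were mostly moderate, with a highest level of 69.3 TPM for Npc2, which carries cholesterol out of lysosomes. Lrp8 and Vldlr, receptors of lipoproteins, had 21.7 ± 0.253 and 4.43 ± 0.215 TPM (SD, n = 2). Abca1, which exports cholesterol, had 14.7 ± 2.13 TPM, and Soat1, which esterifies it for storage, 26.1 ± 1.74 TPM. In this list 6 of 12 genes were called lower and 1 higher in replicate 2, which for the lower calls is near the 45.7% over all genes.

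In fatty acid synthesis, Acly, which supplies cytosolic acetyl-CoA to both pathways, had 178 and 203 TPM and Elovl6, a fatty acid elongase, 161 and 152 TPM. Fasn, fatty acid synthase, had 514 and 129 counts, a mean of 4.46 ± 3.31 TPM (SD, n = 2), and the largest difference in this list, with a log2 ratio of −1.76 at 57.9% GC. It was called lower with 4 other genes of the 10, while 2 were higher, near the 45.7% and 15.1% over all genes. With the GC trend as the expectation, 8 of the 10 were called, 3 lower and 5 higher, beside 44.6% of all genes, and the median log2 ratio of the list turned from −0.19 to 0.11.

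The label of the cells was checked on marker lists. All 10 ES cell markers stood at 34.3 TPM or more, and their summed level was 3675 and 3026 CPM. The 8 feeder fibroblast markers summed to 2.45 and 1.28 CPM, with Lum at 0 in both libraries and Thy1, with 32 and 2 counts, as the largest part in replicate 1. Their part in the differences between replicates was not tested. Of 5 genes of the liver, the main organ of cholesterol export as bile acids, Alb, Cyp7a1, Apoa1 and Ttr had 0 counts, and the usual limit of 3 counts for a gene at 0 corresponds to 0.126 CPM (replicate 1) or 0.148 CPM (replicate 2). The fifth, Cyp27a1, had 32 and 11 counts. The fibroblast markers were near 0, and the 8 members summed to 1166 and 1260 CPM. What part of the members' RNA came from feeder cells was not tested.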

How the data were processed

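mRNA-seq of 2 replicates of uninduced iXist-ChrX-Dom mESCs was used. The authors deposited raw fragment counts per gene, made per the file headers with featureCounts (version 1.5.2; paired, reverse-stranded, transcript features summarised by gene) on mm10. The submitters' processing notes also name Bowtie2 2.3.2 and STAR 2.4.2a. For its chromatin RNA libraries the study removed ribosomal reads with the former and aligned the rest with the latter, keeping unique hits, and the alignment of the mRNA libraries is not given in the sources used here. Count columns lack a letter b that the sample descriptions carry and were matched by the rest of the name. Deposited starts were 1 lower than RefSeq starts for 12335 of 21161 genes with a RefSeq entry, so 1 was added to each start printed.

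Library totals were 23716499 and 20275749. TPM used exonic lengths (union of exons, GENCODE M21 basic), matched for 22145 genes, 21258 by symbol and 887 by an older symbol. The 411 unmatched genes held 0.192% of counts. The deposited length column, which includes introns, was an alternative. GC content came from the longest protein-coding transcript. Replicates were compared by a two-sided exact binomial test over the genome-wide table with Benjamini-Hochberg adjustment. The GC trend was a polynomial of degree 3 over autosomal genes with 50 or more counts in both libraries. Scaling factors came from edgeR 4.0.16 (TMM) and DESeq2 1.42.0 under R 4.3.3, and other steps were run in Python 3.11.15 with scipy 1.17.1. The test was checked on simulated counts. Intervals cover counting error only.

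Members, pathway lists and markers were chosen with earlier results of these data known, and a gene could be named if it was on one of these lists. No gene is ranked by likeness of pattern, since 2 libraries of 1 group hold none.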

Additional observations from a re-analysis of the deposited data

How the results depend on the processing

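Of 84 alternatives over 22 results, 63 kept the direction and the side of the threshold or stayed within 1 SD of the replicates (for a count, within 1.5 times), 9 moved a value further, 3 weakened and 3 strengthened a test, and 6 turned a direction. The number of members that differed between replicates ran from 6 to 8 over 5 alternatives. No paired analysis was possible because only 1 group was sequenced.

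The median member was higher than 77.5% of detected genes, which became 85.7% with span length, 73.6% among genes with at least 1 TPM, 85.4% among all genes listed and 88.9% as the median rank among genes of like GC content, an alternative chosen after seeing the data. The median level of 62.5 TPM was 19.1 as TMM-scaled CPM per exonic kb, a scale that does not sum to 1000000.

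The median log2 ratio of the members turned from −0.27 to 0.039 with DESeq2 size factors and to 0.14 with the GC trend removed. Sqle turned to 0.17 with TMM factors, 0.23 with DESeq2 size factors and 0.29 with the GC trend removed, and Srebf2 to 0.31 with the GC trend removed. Mvd was no longer called with DESeq2 size factors (adjusted p = 0.0649, exact binomial test) or with the trend removed, nor was Idi1 with the trend removed, while Cyp51 became a call with TMM factors, DESeq2 size factors or the trend removed. With 26 and 62 counts, the depth limits Mvd most among the members.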
